A study of Rattus norvegicus with 10 samples.

Results

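A set of 8 genes around the peroxisome proliferator-activated receptor gamma coactivators and the CITED coregulators were followed in muscle of arthritic rats given acupuncture or a saline placebo: Ppargc1a, Ppargc1b, Cited4, Cited2, Esrra, Ppara, Ppard and Tfam. They were chosen by gene symbol, and the table holds 1 transcript for each, so all 8 of the 8 were found among 16497 symbols (17221 transcripts). Cited4 was picked because it was lower after therapy in these same libraries. Its values against the untreated group are therefore a description here, without a test.

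The samples, titled muscle tissue, came from tissue under the skin, its muscle included, around the stimulated points. The donors were female Wistar rats, all with arthritis induced by immunization with type II collagen. RA_0 denotes arthritic rats killed at time zero, without therapy. AP_1h and AP_34d denote rats treated by acupuncture (needle insertion and twirling at points of the lower back and leg) and sampled at 1 hour and at 34 days. PLA_1h and PLA_34d denote rats given sterile saline into the peritoneum and sampled at the same times, so the placebo did not puncture the sampled site. Each of the 5 groups had 2 libraries, 10 in all, and healthy rats were not analysed here. Bulk tissue was sequenced, so that fewer cells of a type and less RNA per cell cannot be told apart.

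PGC-1alpha (Ppargc1a) and PGC-1beta (Ppargc1b) do not bind DNA themselves. They dock on nuclear receptors such as ERRalpha (Esrra), PPARalpha (Ppara) and PPARdelta (Ppard) and raise transcription of the genes of fatty acid oxidation, the citrate cycle and the respiratory chain. In muscle, PGC-1alpha is induced by contraction, cold and fasting, through calcium, AMP-activated kinase and CREB signalling. Tfam, which packages and transcribes mitochondrial DNA, is a downstream output. CITED proteins bind the CBP and p300 acetyltransferases: CITED2 competes with HIF-1alpha for them, and CITED4, a smaller relative, is known in heart muscle as a gene that responds to exercise.

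The table held 5371687 to 8899521 reads per library, so that 1 CPM (a TMM-scaled read count, relative to library depth) stood for 4.19 to 10.1 reads. Muscle fibre markers summed to 119772 to 324377 CPM in every library, in keeping with the tissue label, and 9 of the 10 were in the table. Among other markers, PLA_34d replicate 1 stood apart. Its lymphocyte markers (7 of 8 in the table, none at 0 throughout) summed to 436 CPM, against 0.448 to 10.2 CPM in the other 9 libraries. Its leukocyte markers (8 of 8 in the table, with Ptprc listed at 0 in each of its overlapping isoforms) summed to 981 CPM, against 130 to 606 CPM. Differences that use PLA_34d are therefore also given without that library below, which leaves 1 library in its group, assumed to vary like the others. Group means and correlations over the 10 libraries include it. The part of these cells in the results was not tested.

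The fit was limma on log2(CPM + 1) of 10259 transcripts with all 10 libraries, and a call was a Benjamini-Hochberg adjusted p under 0.05. All 8 genes passed the filter on low values. None of the genes tested was called in any of the 11 contrasts (8 genes, or the 7 other than Cited4 in the 5 contrasts with RA_0), and limma-voom, edgeR and DESeq2 on the recovered reads called none either. Over all transcripts, AP_1h against RA_0 gave 3 calls (0.0292% of those tested), and the other 10 contrasts gave 0%. Without adjustment, 12 of the 83 tests of these genes had p under 0.05, beside 4.72% of the tests of all transcripts, and the smallest adjusted p was 0.472. What follows is therefore a description of levels with their spread, set beside how often the rest of the transcriptome did the same.

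**Figure D1:**
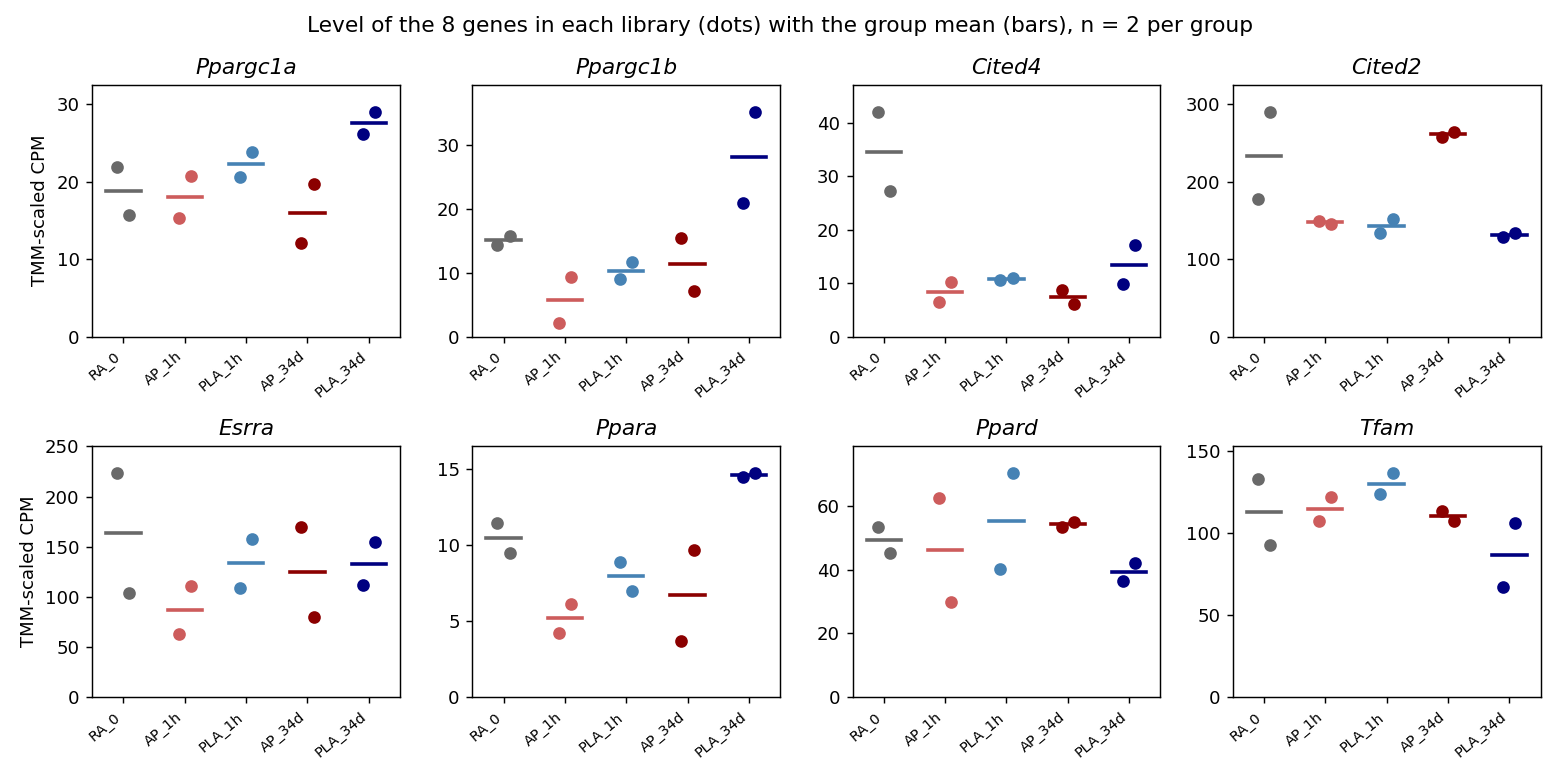
Level of each of the 8 genes in TMM-scaled CPM (vertical axis, from 0, with its own scale in each panel) in the 5 groups (horizontal axis). Dots are single libraries and bars are group means. Cited4 lies at 27.2 to 42.0 CPM in RA_0 and at 6.12 to 17.1 CPM in the 8 therapy libraries, while Esrra spans 104 to 224 CPM within RA_0 alone.

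Cited4 (NM_053699, rn4 chromosome 5, 141258564 to 141259455, plus strand) had 42.0 and 27.2 CPM in the RA_0 libraries. After acupuncture it had 6.49 and 10.2 CPM at 1 hour and 8.79 and 6.12 CPM at 34 days. After placebo it had 10.6 and 10.9 CPM at 1 hour and 9.76 and 17.1 CPM at 34 days. All 8 therapy libraries lay below both untreated ones, whichever therapy or time was sampled. The counts behind these values were 176 and 183 reads in RA_0 and 41 to 120 reads in the therapy libraries.

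On the log2(CPM + 1) scale, Cited4 differed from RA_0 by -1.93 ± 0.39 (SE) in AP_1h, -2.06 ± 0.39 in AP_34d, -1.57 ± 0.39 in PLA_1h and -1.32 ± 0.39 in PLA_34d. The last was -0.95 without PLA_34d replicate 1. These 4 differences use the same pair of untreated libraries, and they are the values for which the gene was picked. Libraries of the 4 therapy groups and RA_0 did not overlap for 4.37% of all transcripts tested, of which Cited4 is one by choice. Of the other 7 genes, 0 had that pattern.

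Between therapies, which the choice of Cited4 did not use, the difference was smaller. Cited4 was lower in both AP libraries than in both PLA libraries at 1 hour (log2 difference -0.36 ± 0.39, 95% interval -1.22 to 0.50, adjusted p = 1) and at 34 days (-0.74 ± 0.39, -1.60 to 0.12, adjusted p = 0.871). Averaged over both times the difference was -0.55 ± 0.27 (adjusted p = 0.903). The average was -0.74 without PLA_34d replicate 1. The 1-hour value was -0.07 without AP_1h replicate 1 and -0.65 without AP_1h replicate 2, and the 34-day value was -1.11 without PLA_34d replicate 1 and -0.37 without PLA_34d replicate 2. Between times, Cited4 differed by -0.13 ± 0.39 within AP (adjusted p = 1) and by 0.25 ± 0.39 within PLA (adjusted p = 0.999), and the libraries overlapped in both. The AP value was 0.16 without AP_1h replicate 2 and 0.10 without AP_34d replicate 2, and the PLA value was 0.62 without PLA_34d replicate 1 and -0.13 without PLA_34d replicate 2.

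Its promoter is shown because Cited4 is the gene on which the choice turned. The window runs from 250 bases before to 50 bases after the RefSeq start, in the GRCr8 build and on the gene's strand. At chr5:139531915-139532214 it reads:
Cited4: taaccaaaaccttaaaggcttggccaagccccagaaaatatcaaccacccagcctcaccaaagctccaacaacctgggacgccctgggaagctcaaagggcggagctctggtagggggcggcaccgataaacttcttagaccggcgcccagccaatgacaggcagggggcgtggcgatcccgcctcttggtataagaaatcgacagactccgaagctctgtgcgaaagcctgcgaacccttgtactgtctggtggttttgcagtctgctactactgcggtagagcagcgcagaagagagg
It held no match, on either strand, to TNAAGGTCA (estrogen-related receptor element), GCGCNTGCG (NRF1 core), CGGAAGTG (ETS site of GABP), TGACGTCA (cAMP response element), CACGTG (E-box) or GACGTG (a longer form of the hypoxia response element). Among 27457 promoters of the same length, 1.15%, 6.34%, 3.56%, 1.91%, 6.65% and 6.54% held these motifs, in the same order. The shorter hypoxia response core, RCGTG (R being A or G), was not searched over the promoters, so no background share is given. The printed Cited4 window holds it as GCGTG. Windows were found for 7 of the 8 genes, Ppard being the exception.

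Cited2 (NM_053698, rn4 chromosome 1, 12721500 to 12723943, plus strand), the HIF-1alpha competitor, followed another course. It had 177 and 290 CPM in RA_0, 149 and 146 in AP_1h, 134 and 152 in PLA_1h, 258 and 264 in AP_34d, and 129 and 134 in PLA_34d. Both 34-day acupuncture libraries thus stood between the untreated ones, and the other 6 therapy libraries lay below both untreated ones. Against PLA_34d the AP_34d libraries differed by 0.99 ± 0.31 on the log2 scale (95% interval 0.29 to 1.68, unadjusted p = 0.0102, adjusted p = 0.846). Against AP_1h they differed by 0.82 ± 0.31 (adjusted p = 0.885), and PLA_34d differed from RA_0 by -0.78 ± 0.31 (adjusted p = 0.914). The last was -1.14 without RA_0 replicate 1, -0.43 without RA_0 replicate 2 and -0.75 without PLA_34d replicate 1. The 34-day difference between therapies was 0.95 without PLA_34d replicate 1. The change of the therapy difference from 1 hour to 34 days was 0.94 ± 0.44 (adjusted p = 1), and 0.90 without PLA_34d replicate 1. The Cited2 promoter holds CACGTG 160 bases before the start. The third family member, Cited1, stayed at 0.112 to 1.63 CPM and did not pass the filter.

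Ppargc1a (NM_031347, rn4 chromosome 14, 64278115 to 64370912, plus strand), the inducible coactivator, had 21.9 and 15.7 CPM in RA_0. At 1 hour it had 15.4 and 20.7 CPM after acupuncture and 20.6 and 23.9 CPM after placebo. At 34 days it had 12.1 and 19.7 CPM after acupuncture and 26.1 and 29.0 CPM after placebo. Only PLA_34d stood clear of all other libraries, on the high side. No acupuncture library exceeded the higher untreated value.

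Against RA_0, Ppargc1a differed by -0.06 ± 0.34 in AP_1h (adjusted p = 0.974), -0.25 ± 0.34 in AP_34d (adjusted p = 0.974), 0.24 ± 0.34 in PLA_1h (adjusted p = 1) and 0.54 ± 0.34 in PLA_34d (adjusted p = 0.914). The 1-hour acupuncture interval ran from -0.81 to 0.69, so a change of Ppargc1a by more than about that size in either direction lay outside it. The AP_1h value was 0.097 without TMM factors, 0.17 without RA_0 replicate 1 and 0.15 without AP_1h replicate 1, and the AP_34d value was 0.08 without AP_34d replicate 1. The PLA_34d value was 0.61 without PLA_34d replicate 1. Between therapies the values were -0.30 ± 0.34 at 1 hour (adjusted p = 1) and -0.79 ± 0.34 at 34 days (95% interval -1.54 to -0.04, unadjusted p = 0.0402, adjusted p = 0.856). The 34-day value was -0.86 without PLA_34d replicate 1 and -0.46 without AP_34d replicate 1. Within AP the times differed by -0.19 ± 0.34 (adjusted p = 0.997; 0.01 without AP_1h replicate 2 and 0.14 without AP_34d replicate 1), and within PLA by 0.30 ± 0.34 (adjusted p = 0.999; 0.37 without PLA_34d replicate 1).

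The Ppargc1a promoter is shown because, alone of the 7 windows, it holds the cAMP response element, through which CREB is known to act on this gene. The element is in capitals and begins 181 bases before the start. At chr14:63634058-63634357 it reads:
Ppargc1a: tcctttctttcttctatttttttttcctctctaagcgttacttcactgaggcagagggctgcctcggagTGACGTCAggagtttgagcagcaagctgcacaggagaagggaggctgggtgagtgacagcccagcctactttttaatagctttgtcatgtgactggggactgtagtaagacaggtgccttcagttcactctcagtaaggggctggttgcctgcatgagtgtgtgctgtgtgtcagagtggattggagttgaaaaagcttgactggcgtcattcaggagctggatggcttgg

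Ppargc1b (NM_176075, rn4 chromosome 18, 57277758 to 57379564, minus strand), the less inducible relative, had the wider spread of the 2 coactivators. It had 14.3 and 15.7 CPM in RA_0, 2.05 and 9.38 in AP_1h, 9.02 and 11.6 in PLA_1h, 15.4 and 7.17 in AP_34d, and 20.9 and 35.1 in PLA_34d. The lowest library, AP_1h replicate 1, rests on 19 reads. At 1 hour all 4 therapy libraries lay below both untreated ones, and at 34 days both placebo libraries lay above them.

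Ppargc1b differed from RA_0 by -1.51 ± 0.56 in AP_1h (95% interval -2.75 to -0.26, unadjusted p = 0.0224, adjusted p = 0.472), which was the smallest adjusted p of the 8 genes. That value was -0.63 without AP_1h replicate 1 and -2.39 without AP_1h replicate 2. AP_34d differed from PLA_34d by -1.28 ± 0.56 (unadjusted p = 0.0454, adjusted p = 0.856), with -1.64 without PLA_34d replicate 1 and -0.77 without AP_34d replicate 2. Over both times acupuncture and placebo differed by -1.14 ± 0.40 (unadjusted p = 0.0165, adjusted p = 0.737), and by -1.32 without PLA_34d replicate 1. PLA_34d differed from PLA_1h by 1.32 ± 0.56 (unadjusted p = 0.0396, adjusted p = 0.999), and AP_34d from AP_1h by 1.04 ± 0.56 (adjusted p = 0.94). The PLA value was 1.69 without PLA_34d replicate 1, and the AP value was 0.16 without AP_1h replicate 1 and 1.92 without AP_1h replicate 2.

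Among the receptors, Ppara (NM_013196, rn4 chromosome 7, 123729774 to 123807090, plus strand), the fatty acid sensor of oxidative tissues, was closest in pattern to Ppargc1a. It had 11.5 and 9.51 CPM in RA_0, 4.22 and 6.16 in AP_1h, 8.92 and 7.02 in PLA_1h, 3.71 and 9.71 in AP_34d, and 14.5 and 14.8 in PLA_34d. PLA_34d was above all other libraries, and acupuncture libraries were below the placebo libraries of the same time. At 34 days the difference between therapies was -1.14 ± 0.41 (95% interval -2.06 to -0.22, unadjusted p = 0.0204, adjusted p = 0.846). It was -1.15 without PLA_34d replicate 1, and it was -0.55 without AP_34d replicate 1, whose value rests on 19 reads. Over both times the difference was -0.84 ± 0.29 (unadjusted p = 0.0164, adjusted p = 0.737), and -0.85 without PLA_34d replicate 1.

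The Ppara promoter is shown for its NRF1 core, a palindrome matched on both strands from 100 bases before the start. Esrra is the other gene of the 8 with a match, 176 bases before its start. The match in Ppara is in capitals, and at chr7:118712357-118712656 the window reads:
Ppara: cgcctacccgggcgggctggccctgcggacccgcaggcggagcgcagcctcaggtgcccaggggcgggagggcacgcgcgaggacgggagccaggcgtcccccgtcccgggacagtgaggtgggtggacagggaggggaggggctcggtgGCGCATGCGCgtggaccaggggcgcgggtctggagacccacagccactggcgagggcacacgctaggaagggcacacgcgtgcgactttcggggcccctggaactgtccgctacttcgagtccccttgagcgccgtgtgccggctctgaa

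Ppard (NM_013141, rn4 chromosome 20, 6479108 to 6544255, plus strand), a PPAR abundant in skeletal muscle, had 53.4 and 45.2 CPM in RA_0, 62.5 and 29.8 in AP_1h, 40.2 and 70.4 in PLA_1h, 53.3 and 55.0 in AP_34d, and 36.6 and 41.9 in PLA_34d. Replicates at 1 hour lay further apart than any group means. The PLA_34d pair was below RA_0 and below AP_34d (log2 difference of AP_34d from PLA_34d 0.46 ± 0.39, 95% interval -0.41 to 1.33, adjusted p = 0.918, and 0.36 without PLA_34d replicate 1).

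Esrra (NM_001008511, rn4 chromosome 1, 209587681 to 209597677, minus strand), which encodes the receptor that PGC-1alpha uses to drive respiratory genes, varied widely within groups. It had 224 and 104 CPM in RA_0, 62.6 and 111 in AP_1h, 109 and 158 in PLA_1h, 170 and 80.2 in AP_34d, and 112 and 154 in PLA_34d. No contrast separated its libraries. The largest difference, AP_1h against RA_0, was -0.87 ± 0.49 (95% interval -1.96 to 0.22, adjusted p = 0.667). It was -0.46 without AP_1h replicate 1 and -1.27 without AP_1h replicate 2. Esrra overlaps Trmt112 in the table's coordinates and strand use in counting is not given in the sources used here, so its counts are uncertain.

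Tfam (NM_031326, rn4 chromosome 20, 18100629 to 18112682, plus strand) had 133 and 92.8 CPM in RA_0, 107 and 122 in AP_1h, 123 and 137 in PLA_1h, 113 and 108 in AP_34d, and 67.3 and 106 in PLA_34d. The lowest value, 67.3 CPM, belongs to PLA_34d replicate 1, the library with the lymphocyte markers. Against RA_0 the differences were 0.04 ± 0.32 in AP_1h (95% interval -0.67 to 0.75), -0.01 ± 0.32 in AP_34d, 0.22 ± 0.32 in PLA_1h and -0.39 ± 0.32 in PLA_34d. The last was -0.06 without PLA_34d replicate 1. Their adjusted p values ran from 0.914 to 1.

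**Figure D2:**
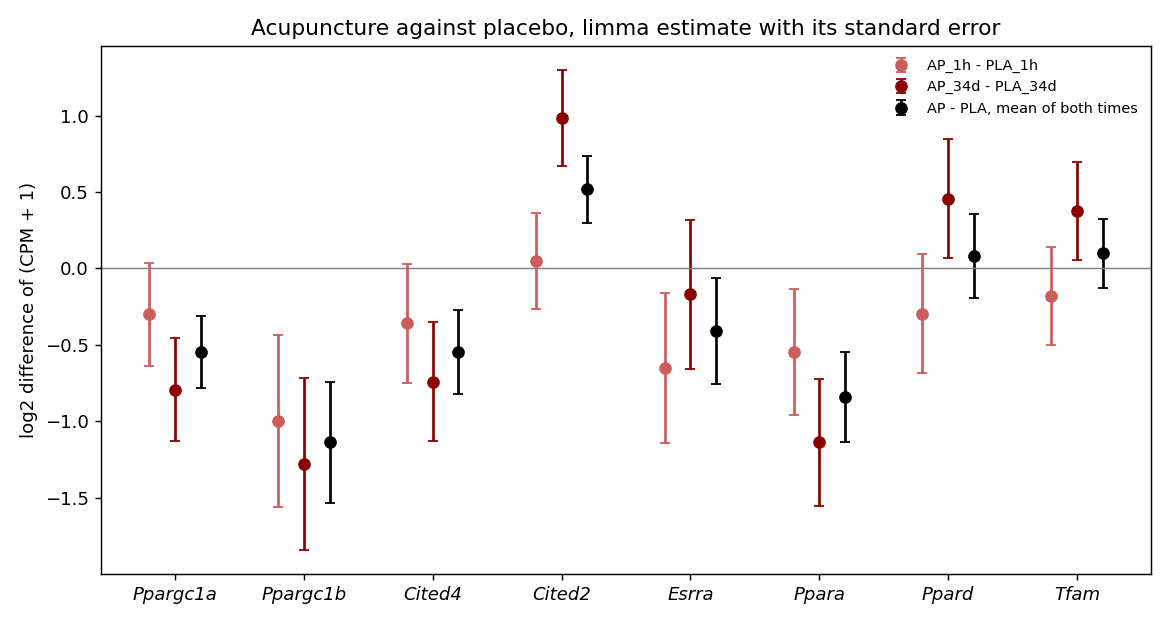
Log2 difference of (CPM + 1) between acupuncture and placebo (vertical axis) for the 8 genes (horizontal axis), at 1 hour, at 34 days and averaged over both times. Points are limma estimates and bars are standard errors. At 34 days Ppargc1a, Ppargc1b, Cited4 and Ppara lie below 0 (-0.79, -1.28, -0.74 and -1.14) and Cited2 lies above (0.99), and no adjusted p is under 0.846.

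Set beside the rest of the transcriptome, the 34-day comparison of therapies was where most of these genes separated. The libraries of AP_34d and PLA_34d did not overlap for 7 of the 8 genes, all but Esrra, against 31% of all transcripts. Ppargc1a, Ppargc1b, Cited4 and Ppara were lower in AP_34d, and Cited2, Ppard and Tfam were higher. Without adjustment 4 of the 8 had p under 0.05 (Cited2, Ppara, Ppargc1a and Ppargc1b), against 5.47% of all transcripts. Without PLA_34d replicate 1 this held for 3 of 8 (Cited2, Cited4 and Ppargc1b, background 2.71%), with an unadjusted limma p of 0.0538 for Ppara and 0.0754 for Ppargc1a (adjusted p = 1 for each of the 8). PLA_34d replicate 2 alone lay outside both AP_34d libraries for the same 7 genes, against 58.3% of all transcripts. Without AP_34d replicate 1, the unadjusted limma p was 0.211 for Ppara and 0.257 for Ppargc1a, while Cited2 (0.0313) and Ppargc1b (0.0233) stayed under 0.05. With each of the 10 libraries left out in turn, the count ranged from 1 (without PLA_34d replicate 2) to 4. Averaged over both times, Cited2, Ppara, Ppargc1a and Ppargc1b again had p under 0.05 (background 5.72%), while the 4 AP and 4 PLA libraries did not overlap for 0 of 8 (background 2.83%). Without PLA_34d replicate 1 that count of 4 became 3 (Cited4, Ppara and Ppargc1b, background 5.20%), and over the 10 libraries left out it ranged from 0 (without AP_1h replicate 1) to 4. At 1 hour the libraries were apart for 3 of 8 (Cited4, Ppara and Tfam, all lower in AP), against a background of 30.6%, and 0 of 8 had p under 0.05 (background 4.04%). The genes were chosen with results of these libraries known, so these counts are a description.

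Against RA_0, counted over the 7 genes other than Cited4, the libraries were apart for 3 in AP_1h (Ppargc1b, Cited2 and Ppara, all lower, background 41.6%) and for 0 in AP_34d (32.3%). They were apart for the same 3 genes, also lower, in PLA_1h (29.4%). In PLA_34d they were apart for 5 (31%), with Ppargc1a, Ppargc1b and Ppara higher and Cited2 and Ppard lower. PLA_34d replicate 2 alone lay outside both RA_0 libraries for the same 5, against 57.9% of all transcripts. Unadjusted p was under 0.05 for 1 of 7 in AP_1h (Ppargc1b, background 8.89%), 0 in AP_34d (4.77%), 0 in PLA_1h (2.59%), 1 in PLA_34d (Cited2, 3.2%) and 0 over all therapies (4.9%). In PLA_34d it was under 0.05 for 0 of 7 without replicate 1 (background 1.57%). Between times, the libraries were apart for 1 of 8 within AP (Cited2, background 33.1%) and 4 of 8 within PLA (Ppargc1a, Ppargc1b and Ppara higher at 34 days, Tfam lower, 27.2%). Unadjusted p was under 0.05 for 1 of 8 in each (Cited2 within AP, 5.35%, and Ppargc1b within PLA, 2.96%).

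Under the thresholds of the study's methods (unadjusted p under 0.05, at least 2-fold, mean of at least 1 CPM), Ppargc1b passed in AP_1h against RA_0 (background 6.12%), in AP_34d against PLA_34d (3.57%) and in PLA_34d against PLA_1h (2.1%). Ppara passed in AP_34d against PLA_34d. Without PLA_34d replicate 1, Ppargc1b and Cited4 passed in AP_34d against PLA_34d (background 2.47%), Ppara did not, and Ppargc1b passed in PLA_34d against PLA_1h (100 of 10259 transcripts). None of the 7 passed in AP_34d (2.82%), PLA_1h (1.67%) or PLA_34d (2.42%) against RA_0. None of the 8 passed in AP_1h against PLA_1h (2.62%) or AP_34d against AP_1h (3.34%).

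The genes did not move as 1 block over the 10 libraries. The highest Pearson r of log2(CPM + 1) among the 28 pairs was 0.80, between Ppargc1a and Ppara, followed by 0.69 between Ppargc1b and Esrra and 0.63 between Cited4 and Esrra. The lowest was -0.67, between Ppargc1a and Cited2. Ppargc1a and Ppargc1b had an r of 0.47, and Ppargc1a and Esrra 0.24. These points share the 5 groups, so r mixes group and animal differences.

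Among the 8152 transcripts with a mean of at least 5 CPM, the 3 most like Esrra were Mdh1 (r = 0.98), Sdhb (0.97) and Cyc1 (0.97), which encode the cytosolic malate dehydrogenase, the iron-sulfur subunit of complex II and cytochrome c1. Mdh1 had 1495 and 716 CPM in RA_0, 317 and 556 in AP_1h, 666 and 1026 in PLA_1h, 1116 and 416 in AP_34d, and 655 and 1079 in PLA_34d. In every group, the library with more Esrra was also the library with more Mdh1. The lowest r, -0.95, was that of Socs3, the feedback inhibitor of cytokine signalling, with 1.43 and 4.90 CPM in RA_0 and 39.1 and 11.8 CPM in AP_1h. It had 9.02 and 1.93 CPM in PLA_1h, 1.56 and 25.7 in AP_34d, and 7.96 and 2.56 in PLA_34d.

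**Figure D3:**
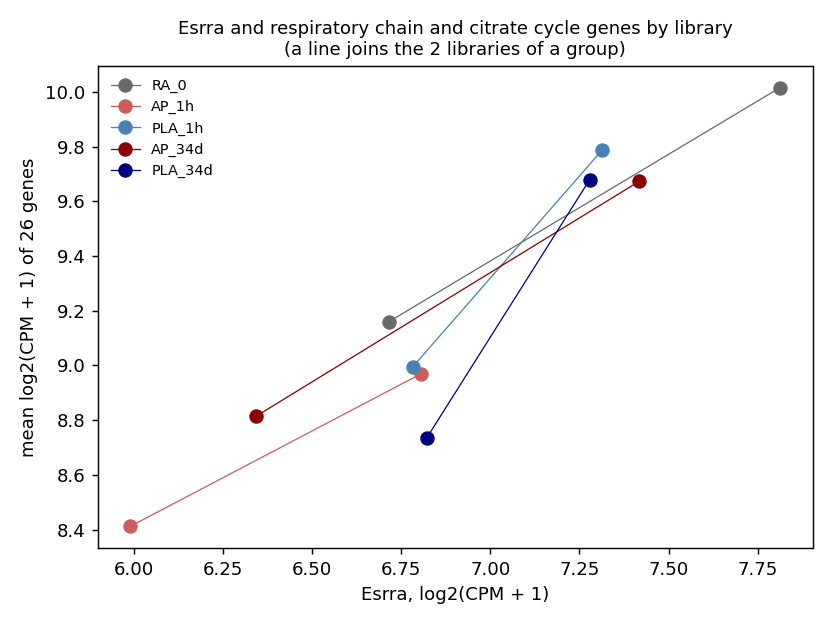
Esrra (horizontal axis) against the mean of 26 respiratory chain and citrate cycle genes (vertical axis), both as log2(CPM + 1), in the 10 libraries, with a line joining the 2 libraries of a group. The lines rise in every group, and r over the 10 libraries is 0.94.

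Esrra followed the 26 listed nuclear genes of the respiratory chain and citrate cycle closely. Its r with their mean was 0.94. For deviations from the group means it was 0.93, so the relation was also present between the 2 libraries of a group. The 2 deviations of a group mirror each other, so each r of deviations rests on only 5 independent points. Gene by gene, r ranged from -0.01 to 0.97 with a median of 0.89, while the median over all transcripts was -0.02. Over the 10 libraries and for deviations from group means, r with that mean was 0.63 and 0.89 for Cited4, 0.51 and 0.85 for Tfam, 0.60 and 0.68 for Ppargc1b, 0.17 and 0.20 for Ppargc1a, and 0.15 and -0.32 for Ppara. Marker sums moved with Esrra in the same libraries. Their r with it was 0.86 for brown adipocyte markers (6 of 7 in the table, with Ucp1 at 0 in every library), 0.79 for red blood cell markers (4 of 6 in the table, none at 0 throughout), 0.77 for muscle fibre, 0.56 for fast fibre and 0.54 for slow fibre markers. Nearly all of the brown adipocyte sum was Cox8b in every library (2106 of 2127 CPM in RA_0 replicate 1). That r is therefore in effect the r of Cox8b and does not show brown fat. The part of the marker sums in the relation was not tested.

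For Cited4 the 3 most alike were Zcchc17 (r = 0.98), Smtn (0.97), which encodes the smooth muscle protein smoothelin, and Hist3h2a (0.93), and the lowest was Isg20l2 (-0.95). Smtn had 91.6 and 71.9 CPM in RA_0 and 27.6 to 65.2 CPM in the therapy libraries, so it too was higher in both untreated libraries. For Ppargc1a they were Zbed4 (0.89), Btbd9 (0.88) and Rai14 (0.85), and the lowest was Rnase4 (-0.93). For Ppargc1b they were Slc39a3 (0.94), Med26 (0.92), a subunit of the Mediator complex, and LOC499602 (0.92), and the lowest was Adamts9 (-0.93). Ppara was most like Ttf2 (0.92), Snn (0.90) and Ndst1 (0.90), and least like Nr1h3 (-0.95), the liver X receptor alpha. Cited2 was nearest to RGD1310587 (0.87), Arf2 (0.80) and Nup88 (0.79) and furthest from RGD1565685 (-0.82). Ppard was nearest to Vps11 (0.93), Atp6v0d1 (0.93) and Pla2g6 (0.92) and furthest from Mir3582 (-0.93). Tfam was nearest to Tmem69 (0.96), Mxi1 (0.96) and Snrpb2 (0.94) and furthest from Eif2ak3 (-0.95), the PERK kinase of the unfolded protein response. These are extremes among the 8152 transcripts over 10 points and carry no test.

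The wider pathway was described with lists of coregulators, receptors, upstream kinases and mitochondrial outputs. Apart from the 8 genes they held 142 tested transcripts of 139 genes, of which 0 were called by limma in any contrast, with a smallest adjusted p of 0.0806 for Ucp3 in AP_1h against RA_0. In that contrast 28 of the 142 (19.7%) had an unadjusted p under 0.05, beside 8.89% of all transcripts. Their median log2 difference was -0.46, beside 0.00 over all transcripts tested.

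**Figure D4:**
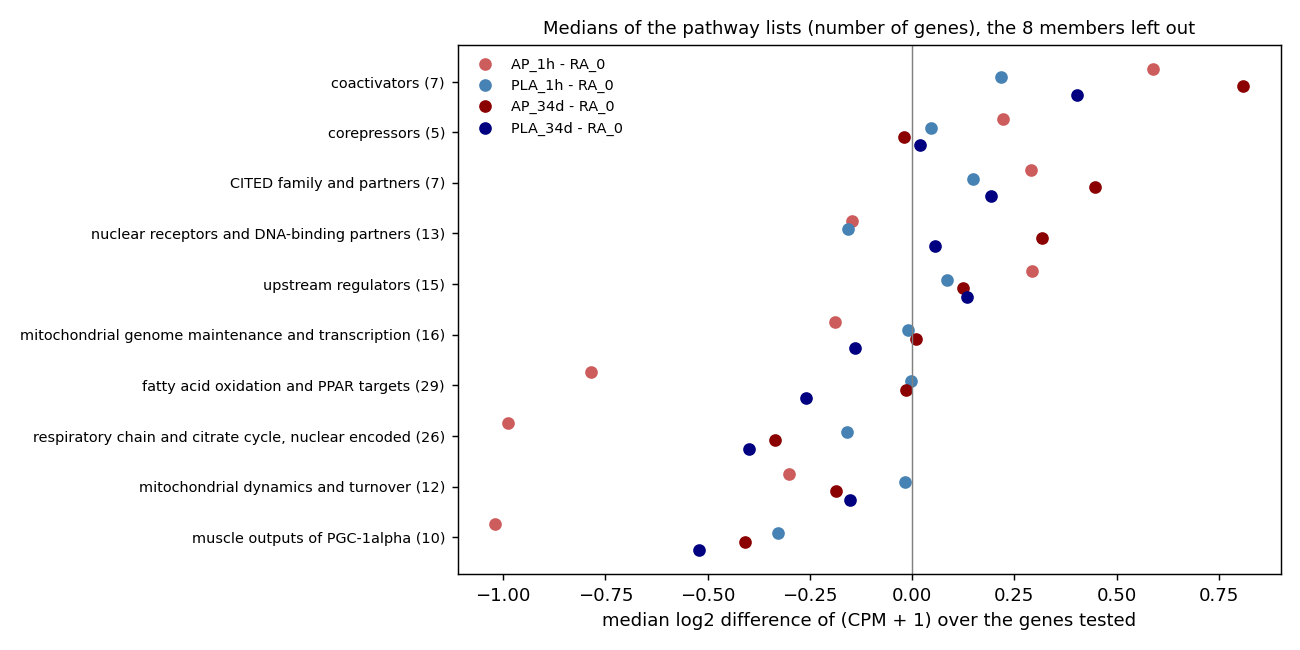
Median log2 difference of (CPM + 1) from RA_0 (horizontal axis) over the tested genes of each pathway list (vertical axis, with the number of genes), for the 4 therapy groups. The 8 genes described above are left out, and PLA_34d replicate 1 is included. The respiratory chain and citrate cycle list lies at -0.99 in AP_1h and at -0.16 in PLA_1h.

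Respiratory chain and citrate cycle genes were lower in AP_1h than in RA_0 for 25 of 26, with 7 at an unadjusted p under 0.05 (beside 8.89% of all transcripts) and none called (median -0.99). The same genes had medians of -0.16 in PLA_1h, -0.34 in AP_34d and -0.40 in PLA_34d. Of the 26, 20 were lower than in RA_0 in PLA_1h, 25 in AP_34d and 25 in PLA_34d. The PLA_34d median was 0.03 without PLA_34d replicate 1, with 16 of 26 genes higher than in RA_0. Their mean log2(CPM + 1) was 10.02 in RA_0 replicate 1 and 9.16 in RA_0 replicate 2, beside 8.41 and 8.97 in the AP_1h libraries. Against PLA_1h, 24 of 26 were lower in AP_1h (median -0.84). Citrate synthase (Cs), the entry enzyme of the cycle, had means of 547 CPM in RA_0, 279 in AP_1h, 556 in PLA_1h, 528 in AP_34d and 540 in PLA_34d. Its difference of AP_1h from RA_0 was -0.95 ± 0.41 (adjusted p = 0.545). Idh2, the mitochondrial isocitrate dehydrogenase, differed by -1.60 ± 0.50 in the same contrast (adjusted p = 0.364).

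Slow fibre markers (10 of 10 in the table, none at 0 throughout) were also lower in AP_1h than in RA_0. Their summed level was 10699 to 21637 CPM in RA_0, 1082 to 1477 in AP_1h, 2502 to 4834 in PLA_1h, 2223 to 13087 in AP_34d and 1979 to 20702 in PLA_34d. Slow fibres are rich in mitochondria, and the part of fibre type in the respiratory values was not tested.

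Genes of fatty acid oxidation and PPAR targets split. In AP_1h against RA_0, 21 of 29 were lower (median -0.79). Cpt1b, the carnitine transferase of muscle mitochondria, was among them (-0.93 ± 0.41, adjusted p = 0.554). Lower than in RA_0 were also 15 in PLA_1h, 15 in AP_34d and 24 in PLA_34d (medians -0.002, -0.01 and -0.26). The PLA_34d median was 0.01 without PLA_34d replicate 1. At 34 days 24 of 29 were higher in AP than in PLA (median 0.35), and 20 of 29 without TMM factors (median 0.14, beside -0.19 for all transcripts under that scaling). Without PLA_34d replicate 1, 18 of 29 were higher (median 0.28). Among the genes named for their wide range of group means were 3 targets used in fasting, which were higher in both AP_34d than in both PLA_34d libraries. Ucp3, the uncoupling protein of muscle, had means of 69.8 CPM in RA_0, 933 in AP_1h, 401 in PLA_1h, 852 in AP_34d and 49.0 in PLA_34d. Pdk4, which blocks pyruvate dehydrogenase, had 219, 770, 485, 1520 and 228 CPM in the same order. Angptl4, a lipoprotein lipase inhibitor, had 7.27, 22.3, 12.4, 60.4 and 3.06 CPM. The AP_34d libraries had 1177 and 528 CPM of Ucp3, 1946 and 1094 of Pdk4 and 108 and 12.996 of Angptl4. Those of AP_1h lay within that span for Ucp3 (858 and 1008 CPM) and Angptl4 (27.7 and 16.9 CPM). For Pdk4 both AP_1h libraries (561 and 979 CPM) lay below it. AP_34d differed from PLA_34d by 4.12 ± 0.58 for Ucp3 (adjusted p = 0.147), 2.98 ± 0.67 for Pdk4 (adjusted p = 0.756) and 3.26 ± 1.01 for Angptl4 (adjusted p = 0.846). Without PLA_34d replicate 1 the differences were 3.48 for Ucp3 (limma adjusted p = 0.706), 2.00 for Pdk4 and 3.29 for Angptl4 (adjusted p = 1 for both). In the same contrast Ppara itself differed by -1.14 and Ppargc1a by -0.79, the opposite sign. The r of Ppara with the mean of these 29 genes was -0.45 over the 10 libraries, and that of Ppargc1a was -0.52.

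Of the receptors and DNA-binding partners, 10 of 13 were lower in AP_1h than in RA_0 (median -0.15), and 7 of 13 were without TMM factors (median -0.005). In each direction 1 had an unadjusted p under 0.05, beside 8.89% of all transcripts in both directions. Esrrg, the ERR of oxidative fibres, had means of 17.8 CPM in RA_0, 3.85 in AP_1h, 14.9 in PLA_1h, 10.3 in AP_34d and 18.5 in PLA_34d (AP_1h from RA_0 -1.95 ± 0.34, adjusted p = 0.0988). Nr4a3, an immediate early orphan receptor induced by exercise, had 1.07 CPM in RA_0 and 12.7 in AP_1h, beside 2.29 in PLA_1h (AP_1h from RA_0 2.71 ± 0.45, adjusted p = 0.0934). Nrf1, which acts with the coactivators on respiratory genes, had group means of 6.01 to 9.20 CPM (AP_1h from RA_0 -0.15 ± 0.33, adjusted p = 0.929). Neither Pparg (up to 0.594 CPM) nor Esrrb (up to 2.13 CPM) passed the filter.

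Among 7 other coactivators, 6 were higher in AP_1h than in RA_0 (median 0.59), and 7 were without TMM factors (median 0.75). In each of PLA_1h, AP_34d and PLA_34d, 6 of 7 were also higher than in RA_0 (medians 0.22, 0.81 and 0.40). The PLA_34d median was 0.15 without PLA_34d replicate 1, with 5 of 7 higher. Lpin1, which works with PGC-1alpha and PPARalpha on fatty acid oxidation genes, had means of 49.4 CPM in RA_0, 112 in AP_1h, 100 in PLA_1h, 104 in AP_34d and 41.1 in PLA_34d, and AP_34d differed from PLA_34d by 1.31 ± 0.50 (adjusted p = 0.846), and by 1.24 without PLA_34d replicate 1. Pprc1, the third PGC-1 relative, had group means of 21.2 to 43.5 CPM. Crebbp, which encodes CBP, differed by 0.82 ± 0.48 between AP_1h and RA_0 (adjusted p = 0.675). Of 5 corepressors 3 were higher in AP_1h than in RA_0, and of 7 CITED partners 4 were. Epas1 (HIF-2alpha), a hypoxia factor that also binds CBP, differed by -1.20 ± 0.37 (adjusted p = 0.347). Cebpb, whose loss in heart muscle is known to go with more Cited4, had means of 76.6 CPM in RA_0, 127 in AP_1h, 93.4 in PLA_1h, 103 in AP_34d and 63.9 in PLA_34d (AP_1h from RA_0 0.74 ± 0.37, adjusted p = 0.614).

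Of 15 upstream regulators, 10 were higher in AP_1h than in RA_0 (median 0.29). In that contrast 5 had an unadjusted p under 0.05, 2 of them higher, beside 8.89% of all transcripts. Higher than in RA_0 were also 9 in PLA_1h, 9 in AP_34d and 8 in PLA_34d (medians 0.09, 0.12 and 0.14). The PLA_34d median was 0.19 without PLA_34d replicate 1. Prkaa2, the muscle AMP-activated kinase subunit, had group means of 45.6 to 158 CPM with an SD of 149 CPM in AP_34d alone, where the libraries had 29.3 and 240 CPM. Genes of mitochondrial genome maintenance, Tfam apart, were lower in AP_1h than in RA_0 for 11 of 16 (median -0.19), and those of mitochondrial dynamics for 9 of 12 (median -0.30). Without TMM factors these were 9 of 16 (median -0.036) and 7 of 12 (median -0.14). Of the 16 genome maintenance genes, 8 were lower than in RA_0 in PLA_1h, 7 in AP_34d and 11 in PLA_34d (medians -0.01, 0.01 and -0.14). Of the 12 dynamics genes, 6, 10 and 9 were lower in the same order (medians -0.02, -0.19 and -0.15). Without PLA_34d replicate 1 the PLA_34d medians were 0.08 and -0.03. Other muscle outputs of PGC-1alpha were lower in AP_1h than in RA_0 for 10 of 10 (median -1.02). Among them Ckmt2, the mitochondrial creatine kinase, had means of 946 CPM in RA_0 and 225 CPM in AP_1h. In each of PLA_1h, AP_34d and PLA_34d, 9 of 10 were also lower than in RA_0 (medians -0.33, -0.41 and -0.52). The PLA_34d median was -0.17 without PLA_34d replicate 1. Their mean log2(CPM + 1) was 9.22 in RA_0 replicate 1 and 8.22 in RA_0 replicate 2. Ep300 and Sirt1 were not analysed here.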

How the data were processed

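RNA was sequenced in 10 rat muscle libraries, 2 for each of 5 groups. As the labels and methods state, the authors trimmed reads (cutadapt 1.2.1 and CASAVA 1.8.2 are among the submitters' tools), aligned them with Bowtie2 2.1.0 to rn4, counted them per RefSeq transcript with HTSeq 0.5.4p3, dropping reads shared by overlapping features, and deposited a signal in CPM scaled by TMM factors from edgeR 3.4.2. Strand use in counting is not given in the sources used here. Values were whole multiples of 1 read for 100% of entries (tolerance 0.01 reads), so whole reads were recovered. TMM factors recomputed from them matched the deposited scale to 2.76e-07%.

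The values log2(CPM + 1) were kept for transcripts that reached 1 CPM in each of the 2 libraries of some group, and were fitted with limma 3.58.1 (R 4.3.3): 5 group means, a mean trend, Benjamini-Hochberg adjustment over 10259 transcripts. Residual and prior degrees of freedom were 5 and 5.14. Each library was taken as 1 rat. The sample titles give a replicate number and do not say whether tissue was pooled. A limit of 3 reads is 0.297 to 0.716 CPM, for counting error only. Alternatives used edgeR 4.0.16, DESeq2 1.42.0, limma-voom, other scalings, filters and pseudocounts, and each library left out. The fit was tested on simulated data.

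All 8 genes are given in every library. Fold changes are given for Cited4 and Ppargc1a in each pair of groups fitted, and for others mainly at an unadjusted p under 0.05 or an absolute log2 difference of at least 1; for each gene the 3 highest and the 1 lowest r; from the lists, part of the 3 genes each with the widest range of group means, and 12 genes set by symbol where the table held them. Smtn, Mdh1 and Socs3 levels and the Tfam, Esrra and Ppard differences were added after values were seen. The genes and lists were chosen with earlier results of these data known. Promoter sequences are RefSeq, GRCr8; names matched for 8 of 8.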

Additional observations from a re-analysis of the deposited data

Results flagged for a closer look

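Tfam stood on opposite sides at the 2 times. It was lower in both AP_1h libraries (107 and 122 CPM) than in both PLA_1h libraries (123 and 137 CPM), and higher in both AP_34d libraries (113 and 108 CPM) than in both PLA_34d libraries (67.3 and 106 CPM). The change of the therapy difference between times was 0.56 ± 0.45 on the log2(CPM + 1) scale (95% interval -0.45 to 1.57, limma adjusted p = 1), so the test of the difference itself did not pass. The value at 34 days was 0.38 with PLA_34d replicate 1 and 0.05 without it.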

How the results depend on the processing

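Calls of the 8 genes (7 in the 5 contrasts with RA_0) and 30 log2 differences of Cited4, Ppargc1a, Ppargc1b, Cited2 and Ppara were recomputed under 23 alternatives, 10 of which left out a library. The number called was 0 in all 11 contrasts under each. Of 690 recomputed log2 differences 681 kept their sign, and 9 reversed. Their size varied more. Ppargc1b in AP_1h against RA_0 ranged from -2.39 to -0.63, and Ppara in AP_34d against PLA_34d from -1.73 to -0.55. Ppargc1a in AP_1h against RA_0 was 0.097 without TMM factors, a scaling that moved the median of all transcripts by 0.15, and -0.28 to 0.17 when libraries were left out. With libraries left out, Ppargc1a in AP_34d ranged from -0.58 to 0.080 against RA_0 and from -0.52 to 0.14 against AP_1h. Cited4 ranged from -0.43 to 0.16 in AP_34d against AP_1h and from -0.13 to 0.62 in PLA_34d against PLA_1h. The cause was not tested. Over all transcripts, calls in AP_1h against RA_0 were 3 with limma, 0 with limma-voom and edgeR, 166 with DESeq2 and 108 with the compared groups fitted alone. Without PLA_34d replicate 2, which leaves that group with replicate 1 alone, calls against RA_0 were 161 and calls in AP_34d against PLA_34d were 174, in place of 0 and 0. Replicate numbers were not taken as pairs in the main fit. Over 10 pairs of groups the deviations correlated at -0.464 to 0.446, with 4 over 0.1. These values cannot show whether same-numbered samples were paired. With the replicate block, 0 of the genes tested were called and calls over all transcripts in AP_1h against RA_0 went from 3 to 0. With 2 libraries a group, the least abundant values rest on 19 reads.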
